A study of Mus musculus with 72 samples.

Results

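The genes described here are 7 protein-coding genes that were chosen by their measured liver transcript levels, because these differ widely between DBA/2J and C57BL/6J mice: Gvin1, Ifi202b, Xaf1, Trim12a, Nuggc, Ctse and Obp2a. All 7 were found among the 51912 genes of the deposited table by Ensembl identifier, and all 7 were among the 19362 genes kept by the filter on low counts, which each passed through the strain in which it is high. The strain difference therefore chose these genes and is given below as a description, without a test. Sex, diet and neighbouring genes are not named as part of the choice, but the groups it compared are not stated. Control libraries may have entered it. The symbols name immune and secreted proteins, and the values below were measured in whole liver.

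The study measured polyA-enriched, stranded RNA-seq libraries of fasted mouse liver, 36 from the inbred strain C57BL/6J and 36 from the inbred strain DBA/2J. Each strain was divided into males and females, and each sex into a Control, a Medium Protein and a Low Protein diet, which gives 12 groups of 6 libraries. The diets began at 10 weeks of age and ran for 13 weeks, the animals were kept at about 22 °C, and livers were taken at 23 weeks after a 16-hour fast. The labels name no transgene or other agent in any group, and every group shares the fast. The series title also names another strain, which was not analysed here. The labels do not say that the code in each title stands for a separate mouse, so p-values measure only the spread between these libraries, which may be technical.

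Library totals ran from 26937177 to 38447505 estimated counts, with a median of 32390194. Levels are given as CPM, the counts of a gene per 1000000 counts of the library after TMM scaling. The hepatocyte marker Alb averaged 49700 CPM over C57BL/6J libraries and 47710 CPM over DBA/2J libraries. Genes of ribosomal-like RNA took a median of 0.156% of the counts but passed 5% in 4 libraries: C57BL/6J male Control replicates 6 (28.3%) and 1 (9.07%), DBA/2J male Control replicate 4 (8.24%) and C57BL/6J male Medium Protein replicate 6 (7.19%). Results that turn on these libraries are given with and without them.

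Several of the genes belong to the interferon system. Cells that sense foreign nucleic acid release interferons, which act through the JAK and STAT proteins to switch on large families of antiviral genes, among them GTPases, TRIM proteins and DNA sensors. Gvin1 encodes a very large interferon-inducible GTPase, Ifi202b encodes a DNA-binding protein of the PYHIN family that counteracts the AIM2 inflammasome, Xaf1 encodes an interferon-inducible partner and antagonist of the apoptosis inhibitor XIAP, and Trim12a belongs to a cluster of TRIM genes related to the retroviral restriction factor TRIM5. Nuggc encodes a nuclear GTPase known from germinal-centre B cells, Ctse encodes the aspartic protease cathepsin E, known from the stomach lining and from immune and red blood cells, and Obp2a encodes a secreted odorant-binding protein of the lipocalin family, whose members carry small hydrophobic molecules.

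The 7 genes lie at 7 loci of the GRCm38 annotation (GENCODE M21). Gvin1 lies at chr7:106156556-106215326 on the minus strand, Trim12a at chr7:104299894-104315466 on the minus strand, Ifi202b at chr1:173962568-173982744 on the minus strand, Ctse at chr1:131638306-131675505 on the plus strand, Xaf1 at chr11:72301629-72313733 on the plus strand, Nuggc at chr14:65598546-65648531 on the plus strand and Obp2a at chr2:25700043-25703326 on the plus strand. The sources used here do not name the build behind the deposited counts, so these positions only place the genes.

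Per kilobase of exon, and taking each gene in its higher strain, Obp2a stood at 140 CPM per kb over the 36 libraries, Ctse at 20.96, Ifi202b at 5.17, Xaf1 at 5.09, Gvin1 at 5.05, Nuggc at 1.66 and Trim12a at 1.49. Ifi202b, Xaf1 and Gvin1 differed from each other by less than their spread over libraries, and so did Nuggc and Trim12a. The length is that of all annotated exons of a gene together, 5781 bases for Trim12a and 4689 for Xaf1. Single transcripts of 1531 and 2597 bases would raise the values of these genes, so the order depends on the length used. Gvin1 and Trim12a were the 2 genes with the higher level in C57BL/6J, and the other 5 had it in DBA/2J.

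**Figure D1:**
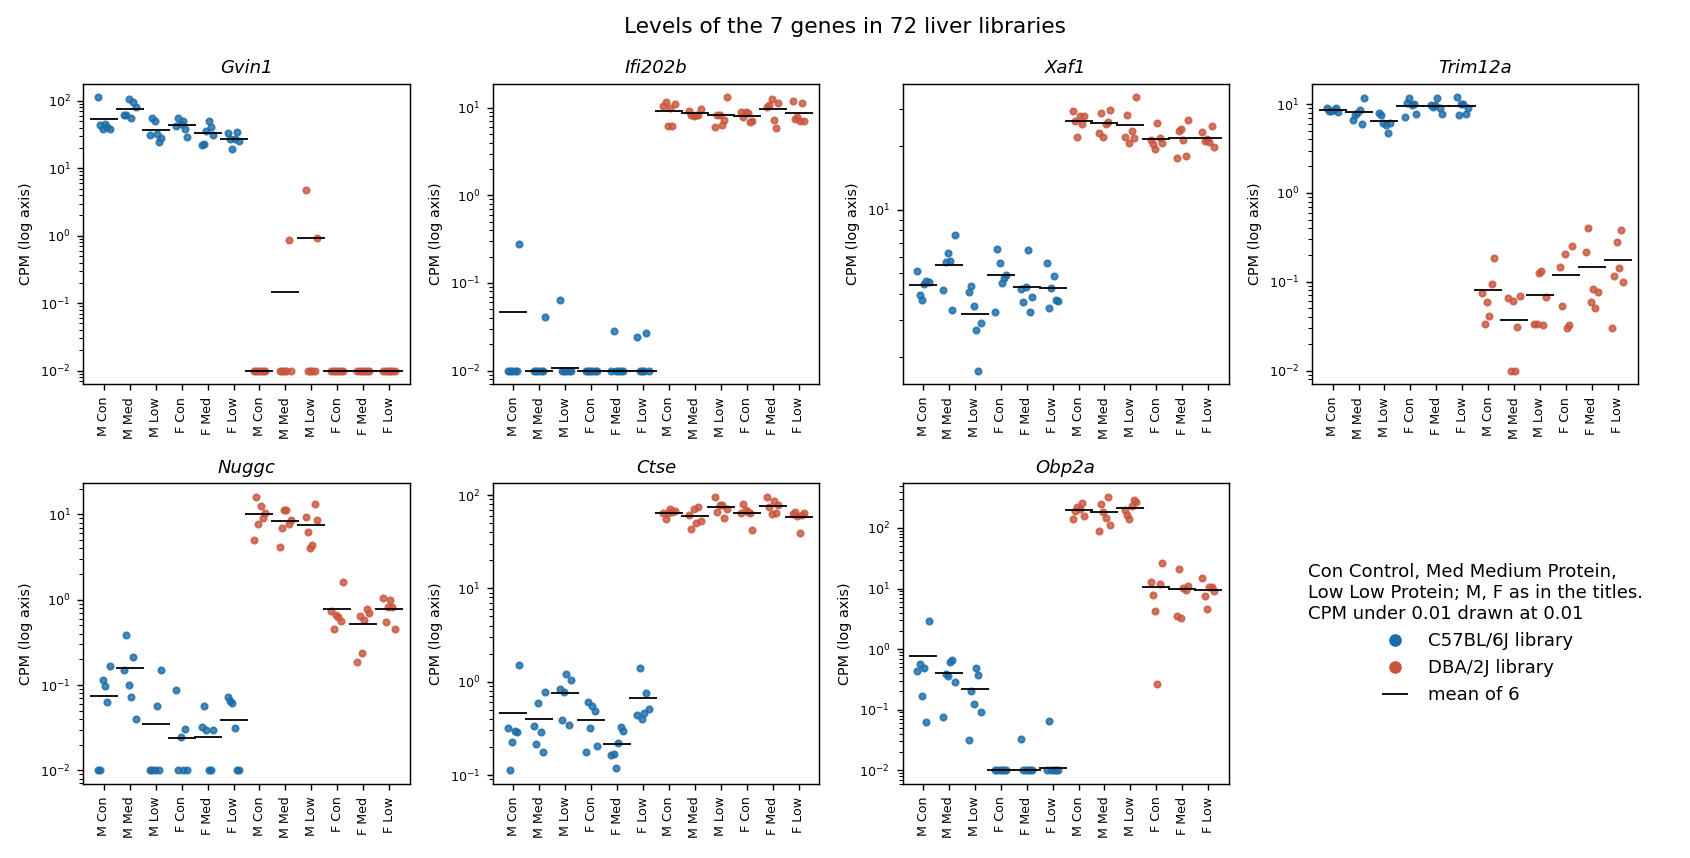
CPM after TMM scaling (log axis) of the 7 genes in each of the 72 libraries, by strain (colour), M or F and diet, with the mean of each group of 6 as a bar; values under 0.01 CPM are drawn at 0.01. Gvin1 and Trim12a are higher in C57BL/6J, the other 5 are higher in DBA/2J, and Nuggc and Obp2a stand lower in DBA/2J females than in DBA/2J males.

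For 5 of the 7 genes the 36 libraries of one strain did not overlap the 36 of the other, a property of 2.54% of all genes tested, and since the strain difference chose the genes nothing is read from that count. The exceptions were Nuggc and Obp2a, whose levels in DBA/2J females reached down to the levels of C57BL/6J males. Within males (18 against 18 libraries) and within females, none of the 7 genes overlapped between strains, against 5.04% and 4.84% of all genes.

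Gvin1 was measured at 45.5 CPM ± 22.7 (SD, n = 36) in C57BL/6J and at 0.180 CPM ± 0.803 (SD, n = 36) in DBA/2J. It was at 0 in 33 of the 36 DBA/2J libraries, all 18 females included, and the 3 exceptions were males: Low Protein replicate 1 with 140 estimated counts (4.71 CPM), Medium Protein replicate 5 with 28.0 (0.869 CPM) and Low Protein replicate 6 with 26.5 (0.913 CPM). Against a floor of 3 counts over the 18 DBA/2J females, Gvin1 as counted was 6851-fold higher in C57BL/6J females. That ratio is no lower bound, because the count is uncertain for the reason given next. Summed with the copy described there, the ratio in females was 1.19.

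Gvin1 has an almost identical copy, which limits what its own count shows. The coding sequence of Gm4070, a neighbouring member of the same GTPase family, has the same 7281 bases as that of Gvin1 with 3 differences, G1805T, G4904A and C7075T, counted from the A of the start codon with the Gvin1 base first, which is an identity of 99.96%. Of all 100-base windows of the longest Gvin1 transcript, 97.8% also occur in a transcript of another gene, and 96.6% occur in Gm4070. Reads of that length from either gene mostly cannot be assigned by sequence, so the RSEM estimates of both are uncertain. The coding bases 1745 to 1864 of both genes from the GENCODE M21 transcripts, read 5′ to 3′, are shown because they hold the first of the 3 differences, with the differing base in capitals.
Gvin1: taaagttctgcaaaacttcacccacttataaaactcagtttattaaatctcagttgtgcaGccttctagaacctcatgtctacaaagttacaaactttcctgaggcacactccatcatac
Gm4070: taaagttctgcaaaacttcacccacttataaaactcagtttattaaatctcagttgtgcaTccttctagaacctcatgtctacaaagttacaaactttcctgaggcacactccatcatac

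Gm4070 ran the other way from Gvin1, at 58.1 CPM ± 29.1 (SD, n = 36) in DBA/2J and 19.2 CPM ± 9.09 (SD, n = 36) in C57BL/6J, and the strains overlapped. Summed, the pair stood at 58.3 CPM ± 29.1 in DBA/2J and 64.7 CPM ± 30.0 in C57BL/6J (SD, n = 36 each), a ratio of 1.11 with overlapping libraries. In males the sum was 72.4 CPM in DBA/2J and 77.0 CPM in C57BL/6J, and in females 44.1 and 52.3 CPM. The strain difference of 252-fold in Gvin1 as counted was thus not present in the sum of the pair.

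Trim12a stood at 8.61 CPM ± 1.79 (SD, n = 36) in C57BL/6J and at 0.106 CPM ± 0.0987 (SD, n = 36) in DBA/2J, 81.4-fold lower, with 131 estimated counts over all 36 DBA/2J libraries. The lowest C57BL/6J library, at 4.76 CPM, was above the highest DBA/2J library, at 0.404 CPM. Of the 100-base windows of 1 Trim12a transcript of 1531 bases, 8.38% occur in Trim5 and none in another gene, its relative Trim12c included. The exons of the gene cover 5781 bases, and the rest was not searched, so windows shared with Trim12c may lie there. Trim12c was higher in DBA/2J, at 24.2 CPM against 8.15 CPM, and the strains did not overlap. The sum of Trim12a and Trim12c was 24.3 CPM ± 2.85 in DBA/2J and 16.8 CPM ± 3.57 in C57BL/6J (SD, n = 36 each), a ratio of 1.45 in favour of DBA/2J with overlapping libraries.

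**Figure D2:**
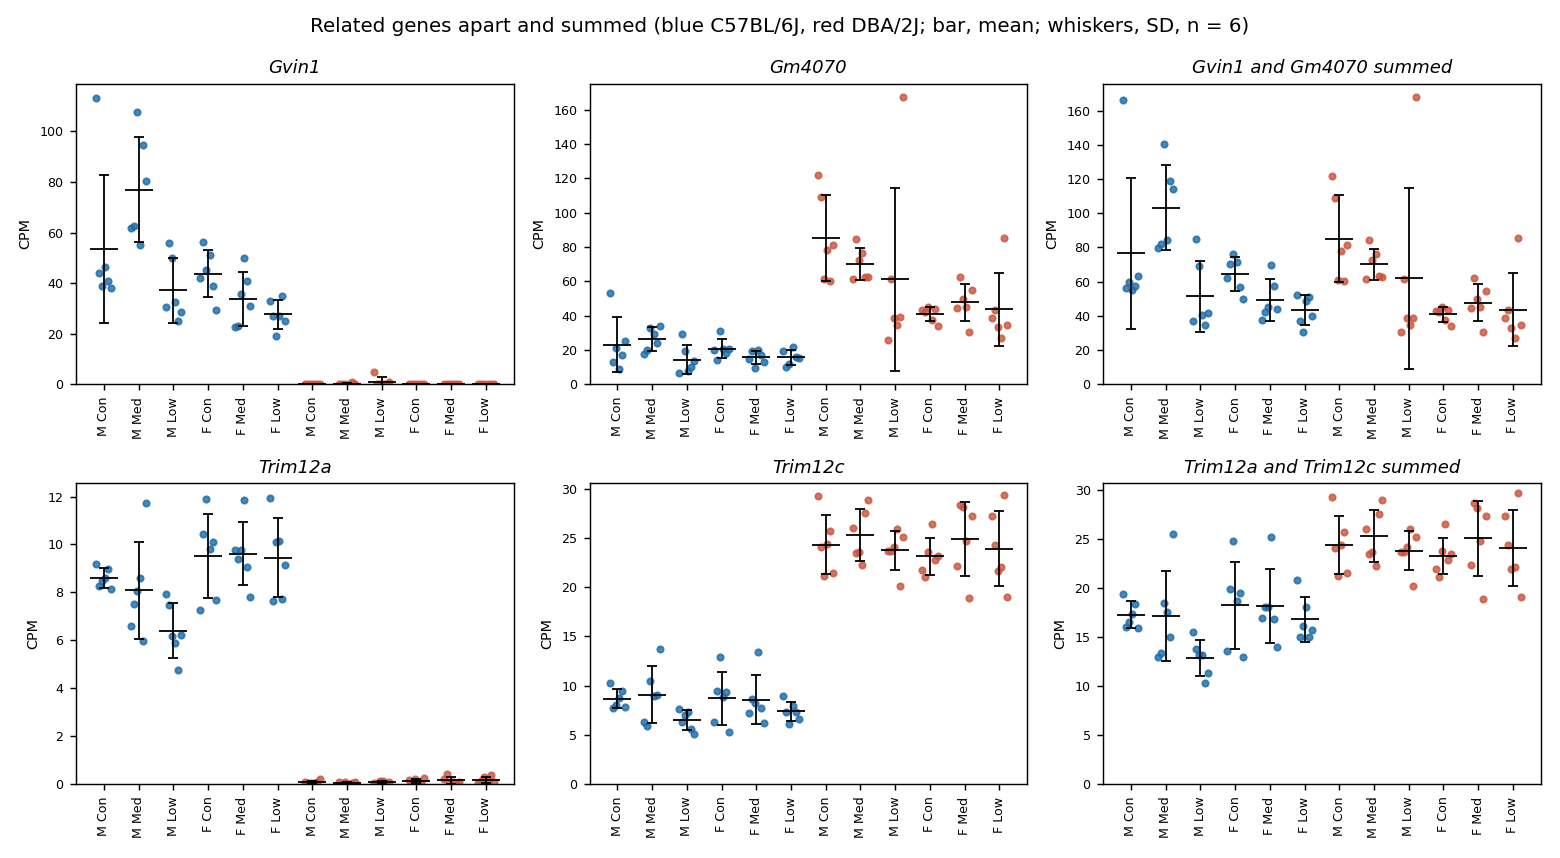
CPM after TMM scaling of Gvin1, Gm4070 and their sum (upper row) and of Trim12a, Trim12c and their sum (lower row) in each library of the 12 groups, with the mean and SD of 6; blue is C57BL/6J and red is DBA/2J. Gvin1 and Trim12a lie near 0 in DBA/2J, whereas the summed pairs do not.

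Ifi202b was close to undetected in C57BL/6J, at 11 counts in all over 36 libraries, 30 of them at 0, and stood at 8.78 CPM ± 2.01 (SD, n = 36) in DBA/2J. Of the 11 counts, 5 came from the library richest in ribosomal-like RNA, C57BL/6J male Control replicate 6. No 100-base window of Ifi202b occurs in another gene's transcripts. The 6 DBA/2J groups ran from 8.06 CPM ± 0.947 (females, Control) to 9.66 CPM ± 2.58 (females, Medium Protein; SD, n = 6 each), and every pair of these groups overlapped. The 250 bases before and 50 bases after its RefSeq start (GRCm38.p6, chr1:173982795-173983094, minus strand), which are those of the C57BL/6J reference and not of DBA/2J, are shown with matches to the interferon-gamma-activated element GAS (TTCNNNGAA) and to the TATA box (TATAAA, or TTTATA on the other strand) in capitals. GAS begins 148 bases before the RefSeq start, and the TATA letters of both strands overlap at 43 and 45 bases after it. The GENCODE span given above ends at 173982744, short of this window, so all these letters lie upstream of the GENCODE start.
Ifi202b: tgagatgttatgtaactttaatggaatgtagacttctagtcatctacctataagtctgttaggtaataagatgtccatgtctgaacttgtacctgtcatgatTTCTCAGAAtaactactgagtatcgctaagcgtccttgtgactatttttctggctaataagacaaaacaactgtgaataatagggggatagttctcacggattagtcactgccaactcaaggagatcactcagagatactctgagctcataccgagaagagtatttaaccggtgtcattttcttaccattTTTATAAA

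Xaf1 had the smallest strain ratio of the 7, at 23.9 CPM ± 3.64 (SD, n = 36) in DBA/2J and 4.43 CPM ± 1.19 (SD, n = 36) in C57BL/6J, 5.39-fold. It was well counted in both strains, and the lowest DBA/2J library, at 17.7 CPM, was above the highest C57BL/6J library, at 7.58 CPM. The ratio was 5.94 in males and 4.86 in females. Its promoter window and that of Trim12a are shown because these genes moved together from library to library, as described further down. They were searched on both strands for the interferon-stimulated response element (ISRE, read as GAAA, any 2 bases and GAAA again), for GAS and for the TATA box, none of which overlaps another in these windows, and matches are in capitals. The windows are chr11:72301379-72301678, plus strand, and chr7:104315446-104315745, minus strand, of RefSeq GRCm38.p6.
Xaf1: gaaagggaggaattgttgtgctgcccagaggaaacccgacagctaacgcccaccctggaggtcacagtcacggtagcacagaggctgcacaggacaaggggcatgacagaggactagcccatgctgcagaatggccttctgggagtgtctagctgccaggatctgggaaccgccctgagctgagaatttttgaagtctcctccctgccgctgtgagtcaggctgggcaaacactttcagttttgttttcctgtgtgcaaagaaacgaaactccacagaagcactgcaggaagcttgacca
Trim12a: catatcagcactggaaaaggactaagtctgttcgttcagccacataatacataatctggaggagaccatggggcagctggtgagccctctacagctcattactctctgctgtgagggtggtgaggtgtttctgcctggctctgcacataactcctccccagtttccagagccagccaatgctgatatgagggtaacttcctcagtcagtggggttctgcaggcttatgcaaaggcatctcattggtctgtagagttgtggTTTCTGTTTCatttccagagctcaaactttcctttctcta

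The ISRE letters began 11 bases after the RefSeq start of Trim12a and were not present in the Xaf1 window. They lie upstream of the GENCODE start of Trim12a, at 104315466. The ISRE occurred in 3.44% of 32851 promoter windows of this length, GAS in 8.3% and the TATA box in 13.6%, so each match is only a description of the letters. RefSeq windows were found for 4 of the 7 genes, and Gvin1, Nuggc and Ctse were not among them.

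Ctse stood at 66.5 CPM ± 12.7 (SD, n = 36) in DBA/2J and at 0.481 CPM ± 0.352 (SD, n = 36) in C57BL/6J, 138-fold. The C57BL/6J level rested on 542 counts over 36 libraries, with none at 0. Of the defining stomach-lining markers, Gkn2 was at 0 in every library, and Gkn1 had 3 counts over C57BL/6J and 0 over DBA/2J libraries. Pgc had 2 and 1 counts and Muc5ac 20 and 4, in the same order. Tff1 ran in the direction of Ctse, at 0.103 CPM over DBA/2J libraries against 0.0588 CPM over C57BL/6J libraries, and its part was not tested. The summed level of the 10 stomach and gland markers was 0.404 to 8.70 CPM in DBA/2J libraries and 0.451 to 2.37 CPM in C57BL/6J libraries. The 10 red blood cell and erythroid genes summed to 46.8 to 328 CPM in DBA/2J and 63.0 to 480 CPM in C57BL/6J, and the strains overlapped.

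Nuggc stood at 4.69 CPM ± 4.68 (SD, n = 36) in DBA/2J and at 0.0592 CPM ± 0.0787 (SD, n = 36) in C57BL/6J, where 62 counts in all were found and 13 libraries were at 0. Of the defining markers of germinal-centre B cells, Rgs13 had 2 counts over C57BL/6J libraries and 0 over DBA/2J libraries, and Gcsam averaged 0.145 CPM and 0.0400 CPM. The 15 B-cell and germinal-centre genes summed to 7.19 to 19.4 CPM in DBA/2J and 7.52 to 36.9 CPM in C57BL/6J.

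Obp2a stood at 104 CPM ± 105 (SD, n = 36) in DBA/2J and at 0.234 CPM ± 0.502 (SD, n = 36) in C57BL/6J, where 16 libraries, all of them from females, were at 0. Of its 100-base windows 4.81% occur in the related Obp2b. In bulk liver, fewer cells of a type and less RNA per cell cannot be told apart, here and in every comparison that follows. Its promoter window (RefSeq GRCm38.p6, chr2:25699824-25700123, plus strand) holds a TATA box that begins 61 bases before the start, in capitals, and no ISRE or GAS letters. It is shown because Obp2a had the highest level of the 7 genes.
Obp2a: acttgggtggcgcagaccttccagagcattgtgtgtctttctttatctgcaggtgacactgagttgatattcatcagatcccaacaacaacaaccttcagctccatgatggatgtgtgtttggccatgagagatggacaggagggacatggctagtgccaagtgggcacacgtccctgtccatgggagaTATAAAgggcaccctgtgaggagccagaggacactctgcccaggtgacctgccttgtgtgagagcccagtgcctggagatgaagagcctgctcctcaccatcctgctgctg

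The genes around each of the 7 were then compared between strains, taking the 2 nearest tested genes on each side. Of these 28 neighbours, 5 did not overlap between strains, against 2.54% of all genes tested. Around Trim12a, 3 of the 4 neighbours did so and in opposite directions: Trim5 was lower in DBA/2J (0.213 CPM against 2.16 CPM), as Trim12a was, whereas Trim34b (4.23 CPM against 0.124 CPM) and Trim12c were higher there. Trim34a, 37.7 kb away, was at 7.51 CPM in DBA/2J and 8.86 CPM in C57BL/6J and overlapped.

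Beside Ifi202b, the PYHIN gene Ifi205 was lower in DBA/2J, at 0.114 CPM against 0.965 CPM with no overlap, so it ran opposite to Ifi202b. Ifi203, 19.9 kb away on the other side, was at 12.2 CPM in DBA/2J and 13.9 CPM in C57BL/6J, with overlap. Beside Ctse, Pm20d1, a secreted enzyme of N-acyl amino acids, was higher in DBA/2J at 158 CPM against 74.7 CPM with no overlap, and Rab7b, which lies closer, overlapped at 0.484 CPM and 1.10 CPM.

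Of the 4 nearest genes of Gvin1, of Nuggc, of Xaf1 and of Obp2a, each overlapped between strains. Nuggc and Obp2a overlapped by this rule themselves, so it says little of the genes beside them. Bmyc, 3.41 kb from Obp2a, was at 0.623 CPM in DBA/2J and 0.142 CPM in C57BL/6J. A230005M16Rik, 2.52 kb from Obp2a and annotated as antisense, was at 0.734 CPM in DBA/2J and 0.0299 CPM in C57BL/6J, and the sources used here do not say whether counting used the strand of the library. Without strand, antisense and sense reads cannot be told apart. A230005M16Rik and Bmyc were higher in DBA/2J males than in DBA/2J females, by 1.96 and 0.94 on the log2 scale (edgeR adjusted p = 5.03e-09 and 0.00105). Of all genes, 39.2% passed in that comparison. Fcna, on the other side of Obp2a, did not pass there (edgeR adjusted p = 0.393). Gm18853, a pseudogene annotated within the span of Gvin1, was at 0.560 CPM in DBA/2J and 6.81 CPM in C57BL/6J, with overlap. Since it overlaps Gvin1, its counts are uncertain too.

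**Figure D3:**
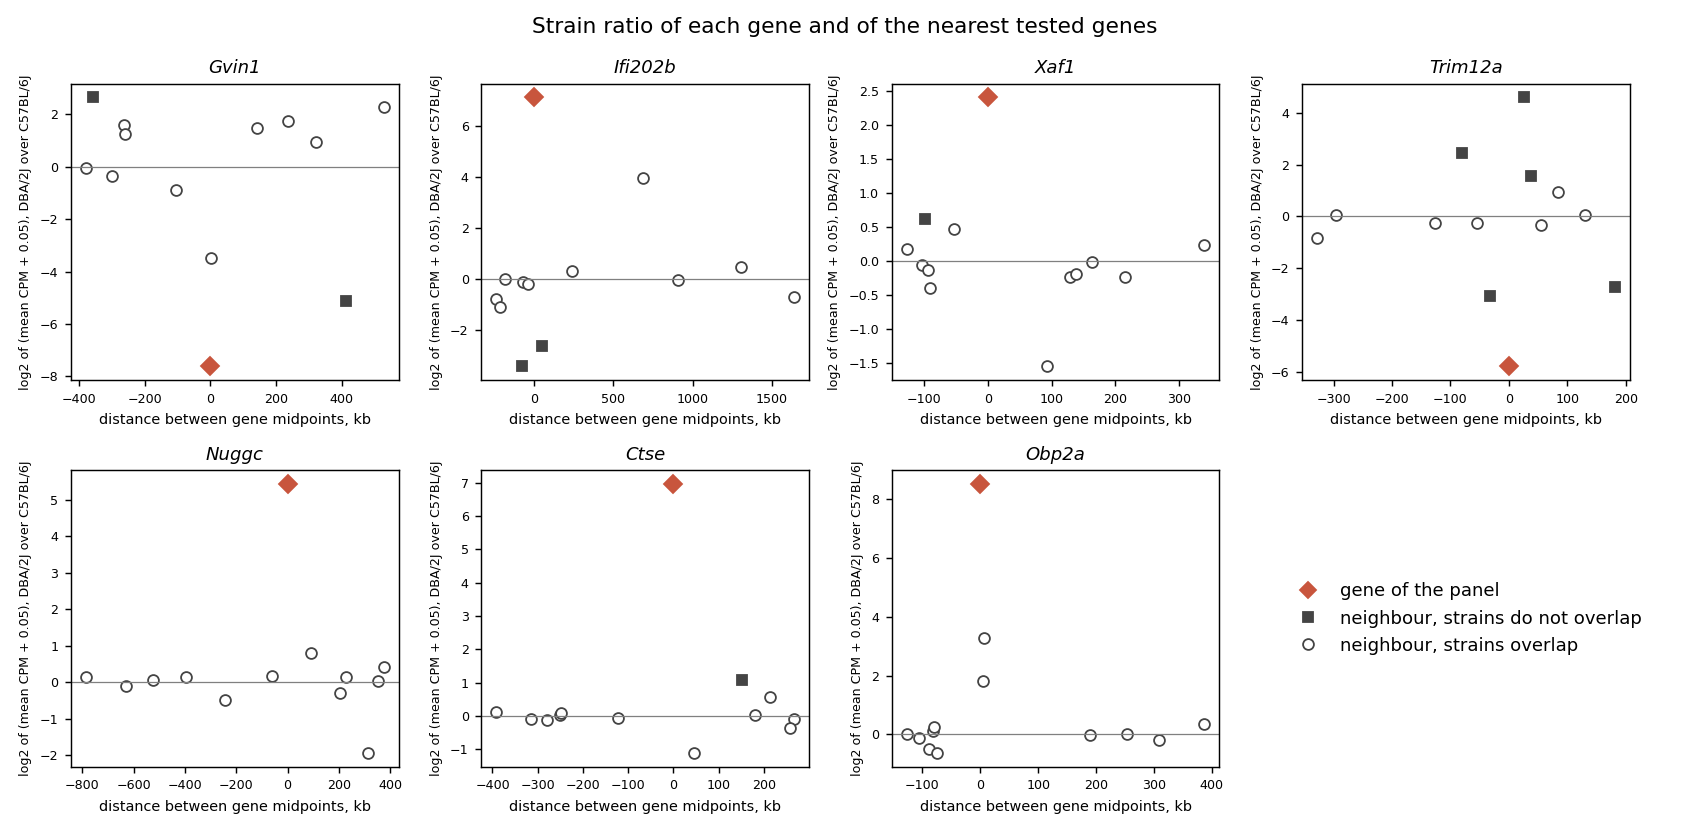
Log2 ratio of mean CPM, DBA/2J over C57BL/6J, with 0.05 CPM added to both means, of each of the 7 genes (diamonds) and of the 6 nearest tested genes on each side, against the distance between gene midpoints in kb. Filled squares are genes whose strains do not overlap; around Trim12a such genes lie on both sides of 0, and around Nuggc and Obp2a there are none.

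The comparison of males with females asks whether the levels of the 7 genes depended on sex in each strain. Nuggc and Obp2a were many-fold higher in DBA/2J males than in DBA/2J females, and these were the only 2 of the 7 genes whose 18 male and 18 female libraries did not overlap in DBA/2J, a property of 2.19% of all genes. Ifi202b and Ctse did not pass the test between sexes in either strain. Of 14 tests, 7 passed the threshold (edgeR quasi-likelihood test, Benjamini-Hochberg adjusted p under 0.05 over all genes), while 42.2% of all genes passed it in C57BL/6J and 39.2% in DBA/2J, so the share of calls among the 7 genes was close to that of all genes.

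Nuggc in DBA/2J males ran from 4.07 to 16.0 CPM with a median of 8.56, and in DBA/2J females from 0.185 to 1.62 CPM with a median of 0.653. Every male was above every female. The mean was 12.6-fold higher in males, and the log2 difference was 3.65 ± 0.20 (SE; edgeR adjusted p = 5.26e-25), with no library whose omission changed that call. The male to female ratio was 13.1 on Control, 16.0 on Medium Protein and 9.77 on Low Protein diet.

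In C57BL/6J, Nuggc had 44 counts over 18 males and 18 counts over 18 females, and the log2 difference of 1.24 ± 0.55 (SE) did not pass (edgeR adjusted p = 0.0637). The test of the difference between strains gave a larger male excess in DBA/2J by 2.41 ± 0.73 on the log2 scale (SE; edgeR adjusted p = 0.0127), which 20.2% of all genes passed in either direction. This test uses the strain values by which the genes were chosen, so it is not independent of that choice. It also rested on the few C57BL/6J counts, and without C57BL/6J female Control replicate 1 the adjusted p was 0.104 (edgeR).

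Obp2a in DBA/2J males ran from 90.6 to 324 CPM with a median of 194, and in DBA/2J females from 0.269 to 26.1 CPM with a median of 9.83. Every male was above every female and the lowest and the highest female both came from the Control group. The log2 difference was 4.31 ± 0.26 (SE; edgeR adjusted p = 5.94e-22), and the ratio of means was 18.5 on Control, 19.0 on Medium Protein and 22.3 on Low Protein diet.

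In C57BL/6J, Obp2a had 213 counts over the 18 males, at 0.0320 to 2.89 CPM, and 3 counts over the 18 females, so the direction was the same at a far lower level. The edgeR adjusted p was 1.96e-05 and the ratio of means 85.0, which rests on those 3 counts. With limma-voom the adjusted p was 0.0504. The difference between strains in the sex effect of Obp2a did not pass (edgeR adjusted p = 0.499), and at these counts that does not show that the effects were alike.

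The nearest gene downstream of Nuggc, Scara5, a ferritin-binding scavenger receptor that lies 17.9 kb away, was likewise higher in males. It stood at 9.88 CPM ± 3.96 in DBA/2J males and 0.310 CPM ± 0.161 in DBA/2J females (SD, n = 18 each), and at 5.67 CPM ± 8.39 in C57BL/6J males and 0.113 CPM ± 0.271 in C57BL/6J females. The male minus female log2 difference was 4.94 ± 0.39 in DBA/2J (SE; edgeR adjusted p = 2.76e-17) and 5.46 ± 0.49 in C57BL/6J (SE; edgeR adjusted p = 7.12e-15). Scara5 had 2918 counts over C57BL/6J males, where Nuggc had 44, and its strains overlapped. On the other side of Nuggc, Elp3, 5.47 kb away, differed little between sexes, by 0.11 ± 0.04 in DBA/2J (SE; edgeR adjusted p = 0.0185) and by 0.07 ± 0.04 in C57BL/6J (SE; edgeR adjusted p = 0.131).

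**Figure D4:**
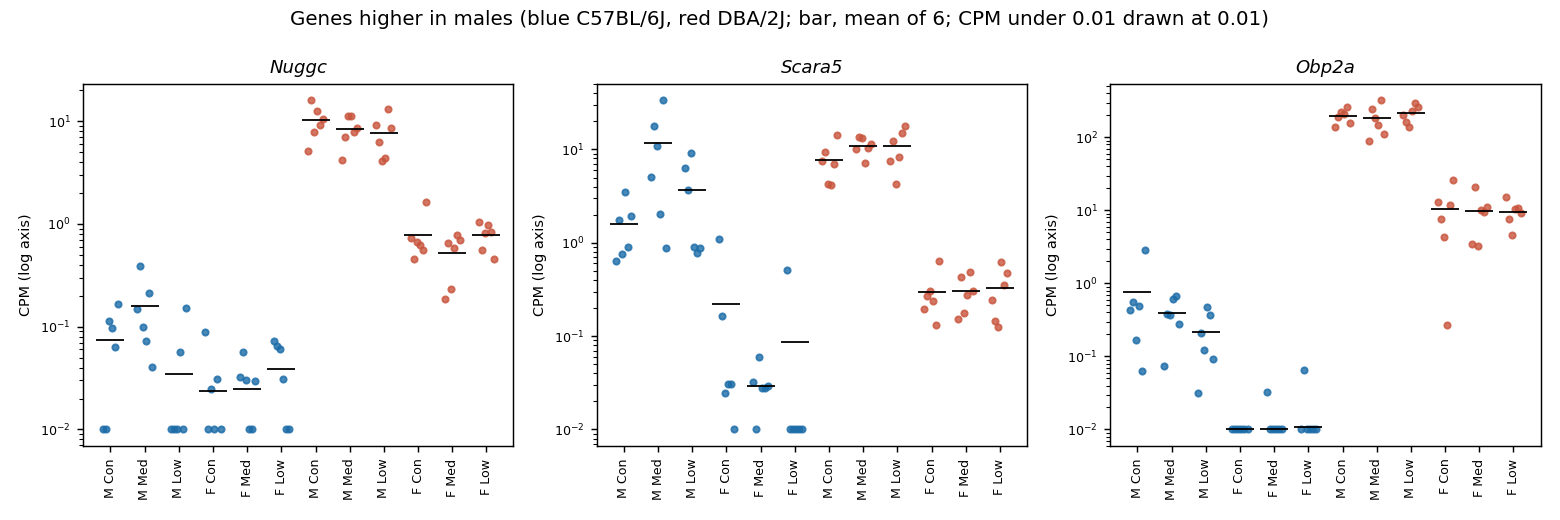
CPM after TMM scaling (log axis) of Nuggc, its neighbour Scara5 and Obp2a in each library of the 12 groups, with the mean of 6 as a bar; values under 0.01 CPM are drawn at 0.01. Males lie above females for Nuggc and Obp2a in DBA/2J and for Scara5 in both strains, while Nuggc is near 0 in C57BL/6J of both sexes.

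The lipocalins, the family of Obp2a, included other genes that were higher in males. Of 12 tested lipocalins, Obp2a included, 5 were higher and 5 lower in DBA/2J males, and 5 were higher and 2 lower in C57BL/6J males, with a median log2 difference of 0.20 and 0.15 against -0.01 and -0.02 over all genes. The major urinary proteins Mup20 and Mup21, which carry pheromones and are known to be made by male liver, differed by 6.47 and 7.30 on the log2 scale in DBA/2J and by 6.71 and 5.34 in C57BL/6J. Of all genes, 39.2% and 42.2% passed in these strains.

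The remaining sex differences of the 7 genes were small or rested on few counts. Xaf1 in DBA/2J was 25.9 CPM ± 3.55 in males and 21.8 CPM ± 2.48 in females (SD, n = 18 each), with overlapping libraries and a log2 difference of 0.24 ± 0.08 (SE; edgeR adjusted p = 0.0170). When library totals replaced TMM factors this difference was 0.00 (edgeR adjusted p = 0.999), since that scaling moved the median of all genes by -0.239 between the sexes of DBA/2J and by -0.229 in C57BL/6J. Of the 41 interferon response genes tested, Xaf1 included, 16 were higher and 1 lower in DBA/2J males, with a median of 0.15, which is less than that shift, and 39.2% of all genes passed there.

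Gvin1 in C57BL/6J was 55.9 CPM ± 26.7 in males and 35.1 CPM ± 10.8 in females (SD, n = 18 each), and the libraries overlapped except on the Medium Protein diet. The log2 difference was 0.63 ± 0.24 (SE; edgeR adjusted p = 0.0320). It fell to 0.51 without male Control replicate 1 (edgeR adjusted p = 0.0846), and it did not pass either without male Medium Protein replicate 3 (0.0501), or without male Low Protein replicate 2 (0.0547). Without the 4 libraries rich in ribosomal-like RNA it was 0.51 (edgeR adjusted p = 0.103). It did not pass with library totals (0.39, edgeR adjusted p = 0.176), without the filter on low counts (0.62, edgeR adjusted p = 0.0572) or with DESeq2 (0.62, adjusted p = 0.386).

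Trim12a was lower in C57BL/6J males, at 7.70 CPM ± 1.60 against 9.53 CPM ± 1.49 in females (SD, n = 18 each), a log2 difference of -0.32 ± 0.11 (SE; edgeR adjusted p = 0.0180) that passed under every alternative run. Of the 12 TRIM genes of its group, Trim12a included, 7 were lower and 0 higher in C57BL/6J males, where 42.2% of all genes passed in either direction. In DBA/2J, Trim12a had 34.9 estimated counts over 18 males and 96.3 over 18 females, and the log2 difference of -1.22 ± 0.31 (SE; edgeR adjusted p = 0.00114) rested on these few counts. With limma-voom it was -0.91 (adjusted p = 0.0702). The strain difference in this sex effect, likewise not independent of the choice by strain, was -0.90 ± 0.33 (SE; edgeR adjusted p = 0.0426). It was -0.58 with limma-voom (adjusted p = 0.357), and leaving out any 1 of 19 of the 72 libraries ended the call.

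Markers of other cells differed between sexes, in comparisons in which 42.2% of all genes passed in C57BL/6J and 39.2% in DBA/2J. Of 14 Kupffer cell and macrophage genes, 12 were lower and 0 higher in C57BL/6J males and 0 passed in DBA/2J, with summed levels of 146 to 366 CPM in C57BL/6J males, 236 to 1275 CPM in C57BL/6J females, 213 to 536 CPM in DBA/2J males and 240 to 485 CPM in DBA/2J females. None of the 14 was at 0 throughout. Of 12 tested B-cell genes, 9 were lower and 0 higher in C57BL/6J males, and 6 were lower and 0 higher in DBA/2J males. Of 8 tested red blood cell genes, 5 were higher and 0 lower in C57BL/6J males, and 4 were higher and 0 lower in DBA/2J males, with summed levels of 142 to 328 CPM in DBA/2J males, 46.8 to 149 CPM in DBA/2J females, 129 to 480 CPM in C57BL/6J males and 63.0 to 198 CPM in C57BL/6J females. Among the red blood cell genes, Alas2 was higher in males by 3.80 on the log2 scale in DBA/2J and by 2.40 in C57BL/6J. The globin Hba-a1 was higher by 0.78 and 0.88. Alas2 ran from 5.74 to 145 CPM over DBA/2J libraries, so this 1 gene held a large part of the sex difference in the sum. The part of these cell types in the sex differences of the 7 genes was not tested.

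The comparison of diets asks whether protein restriction changed these genes within a strain and sex. Few differences passed: 3 of 98 tests over 14 diet comparisons, in Xaf1 and Ctse, all of them involving C57BL/6J. Of all genes, 9.78% passed in C57BL/6J males on Low Protein against Control, 6.53% on Low against Medium Protein and 0.418% on Medium Protein against Control, and in C57BL/6J females 3.25%, 1.94% and 0.0%. In DBA/2J males these shares were 0.093%, 0.0% and 0.00516%, in DBA/2J females 0.816%, 0.0413% and 0.00516%, and for the mean over strains and sexes 8.01% against Control on Low Protein and 0.0% on Medium Protein. None of the 3 calls held in a fit of the compared groups alone. Ifi202b, Nuggc and Obp2a, like Gvin1 and Trim12a, had no diet call in the fit of all 12 groups.

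Xaf1 in C57BL/6J males ran from 3.72 to 5.14 CPM with a median of 4.50 on Control, from 3.37 to 7.58 CPM with a median of 5.67 on Medium Protein, and from 1.73 to 4.36 CPM with a median of 3.20 on Low Protein diet. Low and Medium Protein libraries overlapped in part. The Low minus Medium Protein log2 difference was -0.76 ± 0.16 (SE; edgeR adjusted p = 0.00115), where 6.53% of all genes passed, and no single library's omission ended the call. In a fit of these 2 groups alone it was -0.75 with an edgeR adjusted p of 0.0965.

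Low Protein minus Control was -0.45 ± 0.17 for Xaf1 in the same males (SE; edgeR adjusted p = 0.0685). In DBA/2J males Xaf1 was 26.5 CPM ± 2.53 on Control, 25.9 CPM ± 2.98 on Medium Protein and 25.1 CPM ± 5.14 on Low Protein diet (SD, n = 6 each), and DBA/2J females ran from 21.6 to 22.0 CPM across diets. The authors' deposited table gives -0.7655 for Xaf1 in C57BL/6J males between Medium and Low Protein, with an adjusted p of 0.008385.

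Other interferon genes fell with Xaf1 in that comparison. Of 41 interferon response genes, Xaf1 included, 18 were lower and 0 higher in C57BL/6J males on Low against Medium Protein, with a median log2 difference of -0.46 against 0.00 over all genes, where 6.53% of all genes passed. Against Control 13 were lower, where 9.78% of all genes passed. Oasl1, an antiviral nucleotide-synthetase relative, fell by 1.48 on the log2 scale, and Parp12 and Ifih1, an RNA sensor, fell by 0.65 and 0.66. In DBA/2J males none of the 41 passed, but neither did any of the 19362 genes on Low against Medium Protein (0.0%), and 0.093% of them passed against Control, so this count says nothing of the interferon genes in particular. Of 17 genes around XAF1 and the inhibitors of apoptosis, 2 were lower, Xaf1 among them.

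Gvin1 had its lowest median on Low Protein in C57BL/6J males too, at 38.2 to 113 CPM with a median of 42.4 on Control, 55.1 to 108 CPM with a median of 71.4 on Medium Protein and 24.9 to 55.8 CPM with a median of 31.7 on Low Protein diet. The Low minus Medium Protein difference of -1.05 did not pass in the fit of all groups (edgeR adjusted p = 0.141). It did pass with limma-voom (-1.08, adjusted p = 6.35e-05), in a fit of the compared groups alone (-1.04, edgeR adjusted p = 0.0237), as the sum with Gm4070 (-1.01, edgeR adjusted p = 0.0148) and in the authors' deposited table (-1.073, adjusted p 6.81e-05). The size of the difference was alike in these fits, while the call was not. In C57BL/6J females Gvin1 was 43.8 CPM ± 9.43 on Control, 33.8 CPM ± 10.7 on Medium Protein and 27.7 CPM ± 5.67 on Low Protein diet (SD, n = 6 each). Their Low Protein minus Control difference of -0.66 did not pass in the fit of all groups (edgeR adjusted p = 0.462), but did with limma-voom (-0.65, adjusted p = 0.0390) and in the authors' deposited table (-0.6598, adjusted p 0.0343). Of 23 giant and guanylate-binding GTPases, Gvin1 and Nuggc included, 6 were lower and 0 higher in C57BL/6J males on Low against Medium Protein. Of all genes, 6.53% passed in that comparison. Among the 6 were Mx1 (-1.40), Mx2 (-0.85) and Ifi47 (-0.88).

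Trim12a in C57BL/6J males was 8.60 CPM ± 0.407 on Control, 8.08 CPM ± 2.03 on Medium Protein and 6.41 CPM ± 1.14 on Low Protein diet (SD, n = 6 each). All 6 Low Protein libraries, at 4.76 to 7.92 CPM, lay below all 6 Control libraries, at 8.13 to 9.17 CPM. The difference of -0.43 did not pass in the fit of all groups (edgeR adjusted p = 0.174) but did with limma-voom (-0.45, adjusted p = 0.0183), in a fit of the compared groups alone (edgeR adjusted p = 0.0258) and in the authors' deposited table (-0.4435, adjusted p 0.01902). In 5 of 8 alternative runs this male difference did not pass either, and it ranged from -0.45 to -0.18 over the runs. With library totals in place of TMM factors, Trim12a means were 6.44 CPM on Low Protein and 7.30 CPM on Control in males. That scaling moved the median of all genes by 0.247 in this comparison, so the size of the difference depended on the scaling. In females Trim12a was 9.53, 9.60 and 9.44 CPM on the 3 diets.

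In these C57BL/6J males, 4 of 8 tested red blood cell genes were higher and 1 lower on Low than on Medium Protein, with the beta-globin Hbb-bs higher by 1.27 on the log2 scale, and the 10 genes summed to 170 to 480 CPM on Low Protein, 149 to 271 CPM on Medium Protein and 129 to 261 CPM on Control. Of all genes, 6.53% passed in these males on Low against Medium Protein. None of the 14 Kupffer cell and macrophage genes did, which at that share says little of these cells. The part of red blood cell RNA in the diet differences was not tested.

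**Figure D5:**
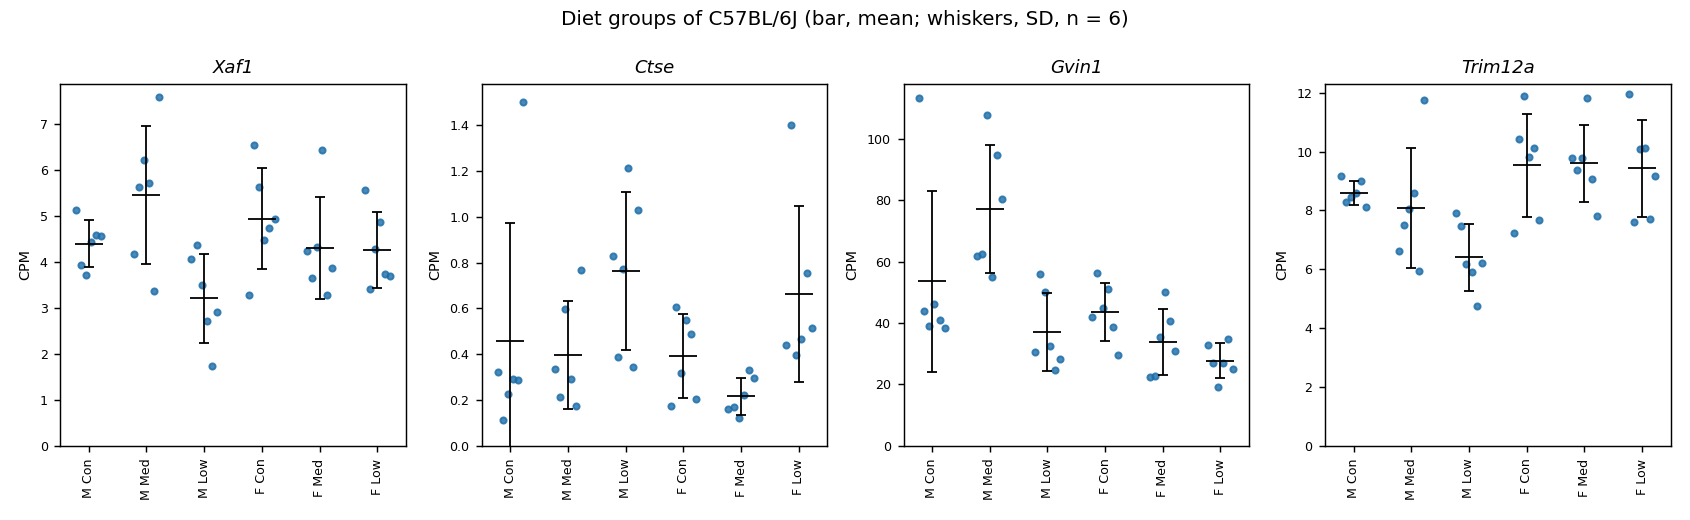
CPM after TMM scaling of Xaf1, Ctse, Gvin1 and Trim12a in the 6 C57BL/6J groups, with the mean and SD of 6 libraries. Low Protein males are lowest for Xaf1 (mean 3.21 CPM) and Trim12a (6.41 CPM), and 1 library stands far above the rest for Ctse in male Control and in female Low Protein.

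Ctse was low in every C57BL/6J group, with its highest mean on Low Protein in both sexes. In C57BL/6J females it ran from 0.176 to 0.607 CPM with a median of 0.405 on Control, from 0.120 to 0.330 CPM with a median of 0.195 on Medium Protein and from 0.398 to 1.40 CPM with a median of 0.491 on Low Protein diet. All Low Protein females were above all Medium Protein females. The difference of 1.57 ± 0.40 on the log2 scale (SE; edgeR adjusted p = 0.0214), where 1.94% of all genes passed, rested on 45 and 132 counts over 6 libraries each. It did not pass without Medium Protein replicate 2 (edgeR adjusted p = 0.0606), without Low Protein replicate 2 (1.23, edgeR adjusted p = 0.115), with limma-voom (0.225), in a fit of the compared groups alone (0.0710) or in the authors' deposited table (1.454, adjusted p 0.2057).

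In C57BL/6J males Ctse ran from 0.112 to 1.503 CPM with a median of 0.290 on Control, from 0.175 to 0.766 CPM with a median of 0.314 on Medium Protein and from 0.346 to 1.21 CPM with a median of 0.802 on Low Protein diet. The highest Control value belonged to replicate 6, the library with 28.3% ribosomal-like RNA, which also held the highest C57BL/6J values of Obp2a (2.89 CPM) and Ifi202b (0.278 CPM). With all libraries the Low Protein minus Control difference was 0.94 ± 0.37 (SE; edgeR adjusted p = 0.0940), and without the 4 libraries rich in such RNA it was 1.68 (edgeR adjusted p = 0.00364). Low minus Medium Protein was 0.92 (edgeR adjusted p = 0.130) with all libraries and 1.19 (edgeR adjusted p = 0.0358) without the 4.

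Averaged over both strains and sexes, the Low Protein minus Control difference of Ctse was 0.43 ± 0.14 (SE; edgeR adjusted p = 0.0485), and leaving out any 1 of 33 of the 48 libraries ended that call. In DBA/2J, where Ctse was well counted, no diet comparison passed, and the order of the diets differed between sexes: 64.9, 59.3 and 74.4 CPM on Control, Medium and Low Protein in males, and 64.6, 76.6 and 58.9 CPM in females. The cathepsins and aspartic proteases as a group moved little in C57BL/6J females on Low against Medium Protein, with 2 of 20 higher, Ctse itself and the cathepsin inhibitor Cstb (0.33). Of all genes, 1.94% passed in that comparison.

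Of 35 tests of whether an effect differed between strains or sexes, 3 passed. All 3 compare strains, so they use the strain values by which the genes were chosen and are not independent of that choice. Of all genes, 20.2% passed for the sex effect between strains, 2.88% and 0.093% for the Low Protein effect between strains in males and in females, and 4.56% and 0.0% for that effect between the sexes of C57BL/6J and of DBA/2J. Besides Nuggc and Trim12a, Gvin1 passed for the Low Protein effect in males (edgeR adjusted p = 0.0113). It rested on DBA/2J libraries at or near 0 counts, with all 6 Control males at 0: without DBA/2J male Low Protein replicate 1 the adjusted p was 0.170 (edgeR), and as the sum with Gm4070 the difference was 0.12 (edgeR adjusted p = 0.930). Replicates 1 and 6, which held the Gvin1 estimates of that group, had the lowest and the highest Gm4070 level of the group, at 25.9 and 167 CPM.

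From library to library within groups, the genes most like Xaf1 and Trim12a were interferon-inducible genes. As a description over the 36 libraries of the higher strain, after removing group means, the 2 genes most like Xaf1 in DBA/2J were Parp14 (r = 0.821) and Rtp4 (0.798), the 2 most like Trim12a in C57BL/6J were Xaf1 (0.848) and Ifit1 (0.846), and the 2 most like Gvin1 were Ifi47 (0.707) and Gm18853 (0.700). Ifi202b was most like Fcgr1 (0.889), a macrophage Fc receptor, and Slfn8 (0.855), and its correlation with the sum of the Kupffer cell and macrophage genes was 0.741 and with that of the interferon response genes 0.739. The libraries share their depth and scaling, and the genes were not independent measurements.

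Nuggc was most like Rnase2a (r = 0.662) and Mup20 (0.660), Ctse most like Hadh (0.702) and Ddah1 (0.695), and Obp2a most like an unnamed gene, ENSMUSG00000044060 (0.697), and Mtnr1a (0.649). Against the sum of the interferon response genes, with Xaf1 left out of the sum for its own value, r was 0.855 for Xaf1 in DBA/2J and 0.721 in C57BL/6J, 0.756 for Trim12a, 0.468 for Gvin1, 0.107 for Nuggc, 0.0363 for Ctse and -0.178 for Obp2a.

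Over the means of the 12 groups, which the strain difference dominates, Xaf1 was most like Itpka and Trim12c (r = 0.996 each), Nuggc most like Cpsf2 (0.988) and Adgrv1 (0.986), Obp2a most like Cela1 (0.990) and Serpina5 (0.989), and Ctse most like Ccr3 and Tuba1a (0.997 each). Gvin1 was most like Gm28959 (0.994) and 6820402A03Rik (0.993), Trim12a most like 4930404H11Rik (0.998) and Gm10600 (0.997), and Ifi202b most like Gm14292 and Gm10260 (0.999 each). Nuggc and Obp2a, which lie on different chromosomes, correlated at 0.980 over the group means and at 0.428 over the deviations of 36 DBA/2J libraries.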

How the data were processed

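The deposited counts are RSEM expected counts per gene, per the submitters' processing notes, which also name edgeR, limma and R 3.4.3. Reads of 2 lanes were merged per library by the authors, per the labels' protocols. The sources used here name no aligner, genome build or annotation. The authors' deposited table holds log2 fold changes, p-values and adjusted p-values per diet comparison, with a score (F) per gene that was not used.

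Expected counts (11.6% not whole) were rounded, filtered (edgeR filterByExpr over 12 groups, 19362 of 51912 genes), scaled by TMM and fitted with edgeR 4.0.16 (glmQLFit and glmQLFTest, R 4.3.3) over all 72 libraries without covariates. P-values were adjusted by Benjamini-Hochberg over all genes, and a call is an adjusted p under 0.05. The precision follows from the replicate spread (common biological coefficient of variation 0.207). Levels are CPM after TMM scaling. Identifiers were named through GENCODE M21 (51633 matched, 279 without a name). Groups with a mean count under 10 were not checked for a library that stands apart, and the floor for a group at 0 is 3 counts.

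The 7 genes, the 20 gene lists and the tests were chosen with earlier results of these data known. Other genes were named by rule: at most 3 called members of a list with the smallest p, 2 neighbours a side, 2 most like genes. Chosen after the data were seen: leaving out 4 libraries rich in ribosomal-like RNA, summing related genes, and showing the uncalled diet values of Gvin1, Trim12a and Ctse. The fit was tested on simulated counts with known changes. DESeq2 1.42.0 and limma 3.58.1 served as alternatives. A few genes of the lists are not reported here by name.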

Additional observations from a re-analysis of the deposited data

Results flagged for a closer look

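Of 56 groups of 6 libraries with a mean count of at least 10, 9 held a library far from the others (gap to the nearest over the range above 0.625), where chance gives about 1 in 20. In C57BL/6J male Control, Gvin1 was 113 CPM in replicate 1 against 38.2 to 46.2 CPM in the others, and replicate 6 stood at 1.503 CPM for Ctse (others 0.112 to 0.321) and at 2.89 CPM for Obp2a (others 0.0638 to 0.562). These libraries had 9.07% and 28.3% ribosomal-like RNA, and the part of that RNA was not tested. In DBA/2J males on Low Protein, Gvin1 was 4.71 CPM in replicate 1 against at most 0.913 CPM, and Ifi202b was 13.2 CPM in replicate 6 against at most 8.30 CPM. Xaf1 was 6.43 CPM in C57BL/6J female Medium Protein replicate 4 (next 4.33), Nuggc 1.62 CPM in DBA/2J female Control replicate 6 (next 0.737), and Ctse 1.40 CPM in C57BL/6J female Low Protein replicate 2 (next 0.755). Ctse was 39.0 CPM in DBA/2J female Low Protein replicate 4, below the next at 60.1 CPM.

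In 3 cases an effect differed between strains by a test of the difference itself with edgeR. These tests use the strain values that chose the genes and are not independent of that choice. The male minus female difference was larger in DBA/2J for Nuggc by 2.41 (adjusted p = 0.0127) and lower for Trim12a, by -0.90 (adjusted p = 0.0426), on the log2 scale. The Low Protein effect in males differed for Gvin1 by 8.44 (adjusted p = 0.0113), a fitted value that depends on groups with 0 counts and is no size of effect.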

How the results depend on the processing

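The number of calls among the 7 genes was 3 for diet, 7 for sex and 3 for differences between effects. Diet calls numbered 5 with library totals, 11 with DESeq2, 5 without the 4 libraries rich in ribosomal-like RNA and 6 with related genes summed. They numbered 2 in fits of the compared groups alone, none of which was among the 3. Calls of differences between effects numbered 6 with DESeq2, 1 with limma-voom and 1 with related genes summed. Sex calls ranged from 5 to 8. With library totals 5 genes, and by group medians 7, did not overlap between strains. With Trim12a replaced by its sum with Trim12c, which in DBA/2J is nearly all Trim12c, the DBA/2J sex difference was 0.023 and its difference between strains 0.21. These are values of the sum by construction and do not test Trim12a. The difference between strains of Trim12a itself was lost without any 1 of 19 of 72 libraries (range -1.02 to -0.69). The cause of the other changes was not tested. For Nuggc in DBA/2J the sex difference ranged from 3.41 to 3.77 over 44 alternatives, and for Obp2a from 4.07 to 4.63, with no call lost. In fits of the compared groups alone Trim12a in DBA/2J gave no value because too few counts passed the filter. No paired analysis was possible because the replicate numbers only name libraries in accession order and pair nothing across groups. Depth limits Nuggc, Ctse, Obp2a and Ifi202b in C57BL/6J and Trim12a in DBA/2J, where a group holds few counts.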
